A study of Mus musculus with 6 samples.

Results

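The genes described here make, break down and answer to the cyclic nucleotides cAMP and cGMP in cultured mouse aortic smooth muscle cells. They were taken from the gene table by symbol alone: the adenylyl cyclases (Adcy), the guanylyl cyclases (Gucy1 and Gucy2), the phosphodiesterases with a family number and a letter (Pde, with Pde3b left out), the subunits of cAMP-dependent protein kinase (PKA) and the cGMP-dependent protein kinases (PKG). This gave 49 genes of the 27179 in the table. The rule used no measured value, but it was chosen with earlier results of these data known. Messenger RNA was sequenced from 6 libraries of primary vascular smooth muscle cells of the mouse aorta, 3 of the genotype labelled Bmal1 KO and 3 labelled WT. All 6 had been kept for 7 days in the medium that the labels call diabetic, with glucose at 4.5 g/L and hydrogen peroxide at 0.3 mM, so every comparison is between libraries of the 2 genotype labels in that medium. The labels give neither the mice's age, sex and strain, nor how and in which cells Bmal1 was deleted, nor whether the 3 replicates are different cultures or mice. P-values therefore measure the spread between these libraries alone, which may be technical.

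Adenylyl cyclases in the plasma membrane make cAMP when stimulatory G proteins are switched on by hormone receptors, while soluble guanylyl cyclase makes cGMP when nitric oxide binds its heme. Phosphodiesterases hydrolyse either or both messengers. In vascular smooth muscle cAMP, through PKA, and cGMP, through PKG, relax the cell and restrain its growth, and this is why nitric oxide donors, prostacyclin and phosphodiesterase inhibitors widen vessels.

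Bmal1, the clock transcription factor gene that the labels call deleted (listed as Arntl), stood at 1036, 941 and 1036 normalized counts (reads scaled to a common depth) in Bmal1 KO libraries, against 529, 619 and 590.3 in WT libraries. It was not lower but higher under the knockout label (1.73-fold, log2 fold change 0.79, SE 0.091, adjusted p = 0.000135). Counts over the whole gene cannot show a missing exon, so they do not check the label, and every direction below is between libraries named by their labels. Sex-linked transcripts split along the same lines, with Xist at 3887, 3874 and 3842 in Bmal1 KO and 89.9, 12.4 and 73.7 in WT, and Y-linked Ddx3y at 82.5, 80.3 and 68.5 in Bmal1 KO and 3314, 2784 and 3229.9 in WT. Genotype and the sex of the cells, to which these transcripts point and which the labels do not give, cannot be told apart here. This holds for every difference below. All 7 smooth muscle markers were detected and higher in Bmal1 KO, their summed level being 99989.5 to 108298 in the libraries labelled Bmal1 KO and 28598 to 32722 in WT libraries. Summed markers of other cell types were also higher: 7 endothelial genes at 840.5 to 1110.4 in the libraries labelled Bmal1 KO and 332 to 471 in WT libraries, 7 macrophage genes at 1858 to 2114 in the libraries labelled Bmal1 KO and 832 to 1042 in WT libraries, and 4 Schwann cell genes at 905 to 1538 in the libraries labelled Bmal1 KO and 129 to 414 in WT libraries. Of those lists 6 of 7, 6 of 7 and 3 of 4 genes passed as higher, macrophage Cd68 passed as lower, and none of the 3 lists held a gene without reads in all libraries. The 4 adipocyte genes summed to 4728 to 6144 in the libraries labelled Bmal1 KO and 1289 to 1953 in WT libraries, nearly all of it Fabp4, while Adipoq, Plin1 and Cidec stayed below 8 in every library. The 6 striated muscle genes summed to 318 to 393 in the libraries labelled Bmal1 KO and 59.7 to 189.8 in WT libraries, with Tnnt2 and Actn2 passing as higher and Actc1 at 0 in 3 libraries, and the 4 photoreceptor genes to 64.0 to 193 in the libraries labelled Bmal1 KO and 40.6 to 67.9 in WT libraries, with none passing. The 7 fibroblast genes summed to 17855 to 19055 in the libraries labelled Bmal1 KO and 40563 to 41910.4 in WT libraries. Of these 7 genes 3 passed as higher and 4 as lower, so the sum does not stand for each gene. The part of these cell type differences in the results below was not tested, and in bulk RNA fewer cells of a type and less RNA per cell cannot be told apart. Depth was 32503525 to 38074293 reads in Bmal1 KO libraries and 39129037 to 44657471 in WT libraries.

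Of the 49 genes, 40 had at least 10 normalized counts in at least 3 libraries and were tested with all other expressed genes. The libraries labelled Bmal1 KO had 27 of them higher, 8 lower and 5 that did not pass the threshold (limma on log2(value + 1), Benjamini-Hochberg adjusted p below 0.05 over 16086 genes). Over all genes tested 36.2% were higher and 34.9% lower, 71.1% in all, against 67.5%, 20.0% and 87.5% of the tested members. The median log2 fold change was 0.94 over the tested members and -0.01 over all genes. Rises of at least 2-fold were seen for 19 of the 40 tested members, while 20.6% of all genes tested rose that far. No member fell that far, while 12.8% of all genes tested did. Values of the groups did not overlap for 36 of the 40 members, and for 76.7% of all genes tested. These counts describe the members that passed the filter: Gucy2c, Gucy2g, Pde1c and Pde4c reached it only through the libraries labelled Bmal1 KO, so they had to differ. All 4 are among the 19 that rose at least 2-fold. Without WT replicate 3 the members called lower numbered 5. Counts given by class below are to be read beside the shares of all genes tested.

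**Figure D1:**
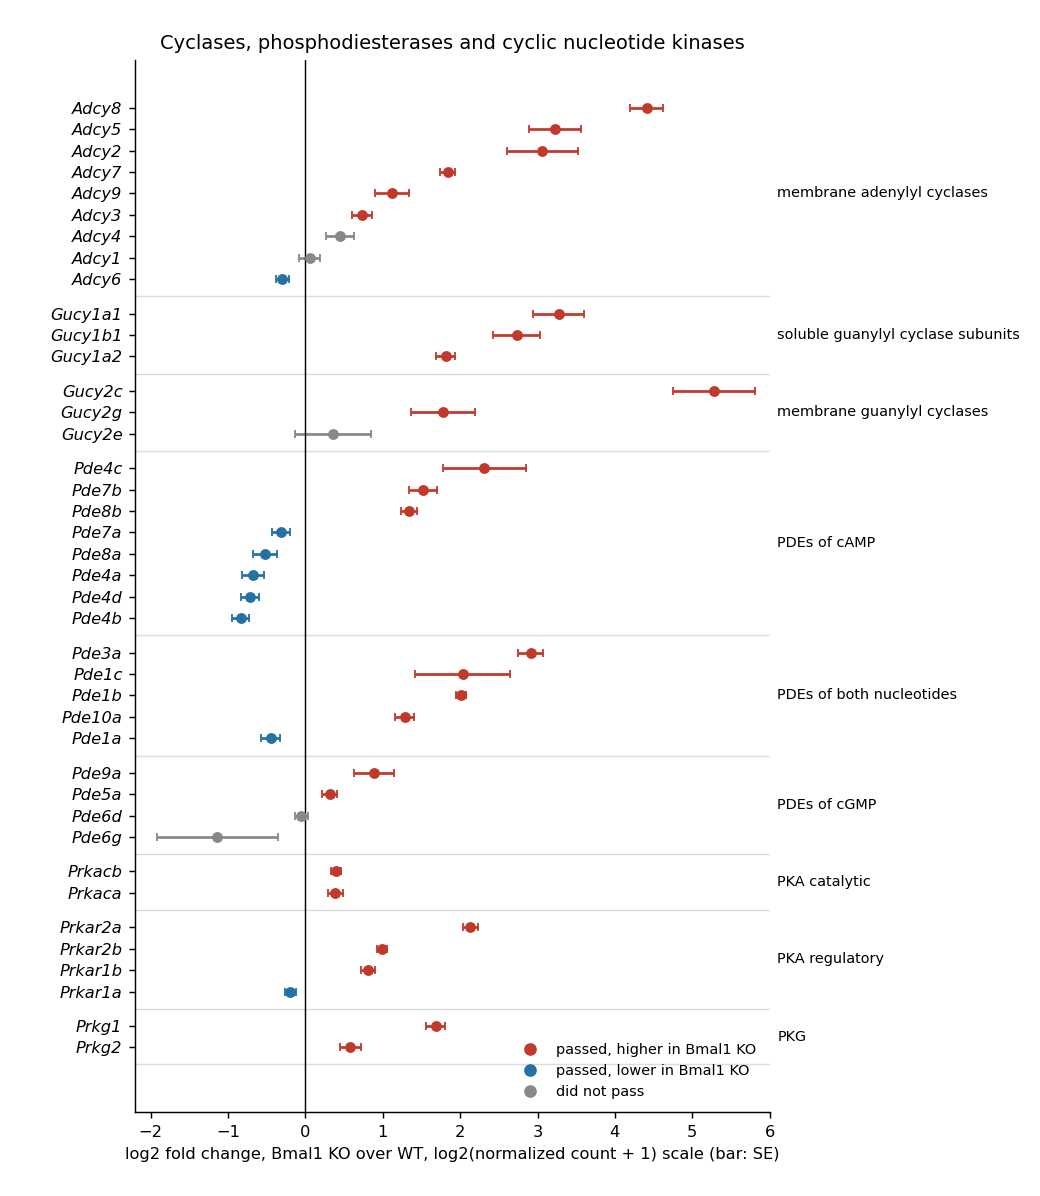
Log2 fold change (libraries labelled Bmal1 KO over WT, on the log2(normalized count + 1) scale) of the 40 tested members, grouped by role, with bars for the SE. Red points passed the test as higher in Bmal1 KO (27), blue as lower (8) and grey did not pass (5). Soluble guanylyl cyclase subunits lie at 1.81 or above, while the PDEs of cAMP lie on both sides of 0.

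Among the 9 membrane adenylyl cyclases 6 rose, Adcy6 fell, and Adcy1 and Adcy4 did not pass. Adcy5, a cyclase inhibited by calcium and prominent in heart and striatum (chromosome 16, 35154494 to 35305743 in the mm10 build), had 1032, 1031 and 828 normalized counts in Bmal1 KO, against 134, 55.6 and 141 in WT. Every library labelled Bmal1 KO was above every WT library, and the lowest value, in WT replicate 2, was less than the other WT values by more than they differed from each other. The rise was 8.75-fold (log2 fold change 3.22, SE 0.33, adjusted p = 7.74e-05). Adcy8, a calcium-stimulated cyclase best known from brain, stood at 281, 336 and 318 in Bmal1 KO and at 11.9, 16.6 and 12.9 in WT. The WT values lay just over the filter limit, and the libraries did not overlap, a 22.6-fold difference, the largest fold among cyclases with at least 10 counts in all libraries (log2 fold change 4.41, adjusted p = 1.23e-06). Adcy2, stimulated by the beta-gamma subunits of G proteins, had 313, 452 and 415 in Bmal1 KO and 86.2, 20.7 and 52.5 in WT. This 7.40-fold rise carried the largest SE of the adenylyl cyclases (log2 fold change 3.06, SE 0.46, adjusted p = 0.000563).

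Adcy7, which also answers to beta-gamma subunits and is common in blood cells, rose with little spread among the libraries labelled Bmal1 KO. It had 4921, 4975 and 4887 normalized counts in Bmal1 KO and 1184, 1544 and 1432 in WT, a 3.55-fold rise (adjusted p = 2.29e-06). The libraries labelled Bmal1 KO were nearly equal to each other and far above all WT libraries. Adcy9, which forskolin stimulates little, had 596, 639 and 599 in Bmal1 KO and 192, 358 and 323 in WT (2.10-fold, adjusted p = 0.00230). Calcium-stimulated Adcy3 had 2259, 2324 and 2358 in Bmal1 KO and 1143, 1653 and 1428 in WT (1.64-fold, adjusted p = 0.00111). Of the exon bases of Adcy3, 24.3% also belong to Cenpo on the other strand, and the strand setting of the counting is not given in the sources used here, so its level is uncertain. Adcy6, the calcium-inhibited relative of Adcy5, was the one cyclase that fell. Its values were 6480.0, 6545 and 6586 in Bmal1 KO and 7205, 8855 and 8111 in WT, 1.23-fold lower (log2 fold change -0.30, SE 0.081, adjusted p = 0.0111).

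Adcy1, a calcium-stimulated cyclase, did not pass, with 2566, 3385 and 3252 normalized counts in Bmal1 KO and 2481, 3306 and 3067 in WT (log2 fold change 0.06, adjusted p = 0.727). After correction for exon length and GC, its log2 fold change was -0.45 (adjusted p = 0.00309). Adcy4 had 83.6, 77.9 and 78.8 in Bmal1 KO and 57.8, 54.7 and 62.6 in WT, without overlap, and just missed the threshold (adjusted p = 0.0533). It passed after correction for exon length and GC, with upper-quartile scaling and with a pseudocount of 5. Soluble Adcy10, which bicarbonate stimulates, had 11 reads in Bmal1 KO and 3 in WT and was not tested.

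Levels of different genes can be set side by side only per length, here normalized counts per kilobase of annotated exon. On that scale the 9 membrane cyclases summed to 3001 ± 73.6 in Bmal1 KO and 2181 ± 255 in WT (SD, n = 3 each). Adcy6 held the largest share of this sum under either label, with 36.1% ± 0.711 in Bmal1 KO and 61.3% ± 1.12 in WT. Its share was thus lower in Bmal1 KO, and that of Adcy7 was higher (26.4% ± 0.570 in Bmal1 KO and 10.2% ± 0.204 in WT). Adcy3 came next in WT and after Adcy7 in Bmal1 KO (15.3% ± 0.263 in Bmal1 KO and 12.8% ± 0.854 in WT). Adcy5 made up 4.59% ± 0.585 in Bmal1 KO and 0.745% ± 0.364 in WT, and Adcy8 1.48% ± 0.0967 in Bmal1 KO and 0.0903% ± 0.00769 in WT. The transcripts each cell uses are not known, so per-length levels are approximate, and 10.0% of the exon bases of Adcy6 are shared with a gene on the other strand.

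The subunits of soluble guanylyl cyclase, the nitric oxide receptor, rose together. The enzyme is a dimer of an alpha and a beta subunit, in vascular smooth muscle mostly of the products of Gucy1a1 and Gucy1b1, with Gucy1a2 as the other alpha. Gucy1a1 (chromosome 3, 82092427 to 82145946) had 728, 807 and 627 normalized counts in Bmal1 KO, against 86.2, 41.5 and 109.6 in WT. Its neighbour Gucy1b1 (chromosome 3, 82032004 to 82074711, 17715 bases away on the same strand) had 882, 1007 and 862 in Bmal1 KO, against 164, 79.6 and 196 in WT. In both genes WT replicate 2 was lowest, and no library of one label overlapped those of the other. Gucy1a2, on chromosome 9, had 815, 992 and 801 in Bmal1 KO and 218, 265 and 256 in WT, where replicate 2 was not low. The rises were 9.11-fold for Gucy1a1 (log2 fold change 3.27, SE 0.33, adjusted p = 6.41e-05), 6.26-fold for Gucy1b1 (log2 fold change 2.73, SE 0.30, adjusted p = 0.000113) and 3.53-fold for Gucy1a2 (log2 fold change 1.81, SE 0.13, adjusted p = 9.22e-06). Per kilobase, the beta subunit Gucy1b1 averaged 284 in Bmal1 KO and 45.4 in WT, Gucy1a1 149 in Bmal1 KO and 16.4 in WT and Gucy1a2 388 in Bmal1 KO and 109.8 in WT. The annotation gives Gucy1a2 only 2243 exon bases, so its level per kilobase is the least certain of the 3. Of undivided normalized counts Gucy1a2 averaged 869 in Bmal1 KO and 246 in WT, still above Gucy1a1 (721 in Bmal1 KO and 79.1 in WT). On that scale Gucy1b1 averaged 917 in Bmal1 KO and 147 in WT. The place of Gucy1a2 above Gucy1b1 in Bmal1 KO thus rests on the division by length. The other beta gene, Gucy1b2, had 2 reads in Bmal1 KO and 6 in WT. WT replicate 2 also had the lowest Xist value. Among WT libraries it had the lowest sum of every cell type list except smooth muscle, so no single cell type stands out. These sums included Schwann cell (129), striated muscle (59.7), endothelial (332), macrophage (832) and fibroblast markers (40563). Its smooth muscle sum (31826) lay between those of WT replicates 1 (32722) and 3 (28598). Without WT replicate 2 the log2 fold changes were 2.87 for Gucy1a1 and 2.34 for Gucy1b1.

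The promoters of these 3 genes are shown because the genes moved together, each as the 250 bases before a RefSeq start in GRCm38.p6 (the same assembly as mm10), written 5′ to 3′ on the strand of the gene. For Gucy1a1 the farther upstream of the 2 starts in the promoter table is shown. Both its windows lie within the RefSeq span of the gene, whose 5′ end is at 82145946. Bases before that end were not searched. Capitals mark the E-box CACGTG, to which CLOCK and BMAL1 bind, and the core TGACG (or CGTCA) of the cAMP response element, which is part of the full element TGACGTCA.
Gucy1a1 (chr3:82145651-82145900, minus strand): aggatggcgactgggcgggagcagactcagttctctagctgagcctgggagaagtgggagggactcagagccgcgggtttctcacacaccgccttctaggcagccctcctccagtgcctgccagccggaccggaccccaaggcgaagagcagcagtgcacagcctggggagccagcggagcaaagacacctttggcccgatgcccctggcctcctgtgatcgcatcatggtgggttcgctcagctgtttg
Gucy1b1 (chr3:82074712-82074961, minus strand): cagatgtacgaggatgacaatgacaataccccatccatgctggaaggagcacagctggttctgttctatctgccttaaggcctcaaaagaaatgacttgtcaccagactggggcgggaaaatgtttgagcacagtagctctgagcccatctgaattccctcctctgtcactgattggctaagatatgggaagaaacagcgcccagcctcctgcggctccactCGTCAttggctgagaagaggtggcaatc
Gucy1a2 (chr9:3532099-3532348, plus strand): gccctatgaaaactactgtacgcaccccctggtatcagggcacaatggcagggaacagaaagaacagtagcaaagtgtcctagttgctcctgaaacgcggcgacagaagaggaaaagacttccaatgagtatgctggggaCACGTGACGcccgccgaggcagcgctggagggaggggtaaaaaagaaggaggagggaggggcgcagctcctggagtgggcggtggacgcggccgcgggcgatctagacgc
In the Gucy1a2 promoter an E-box and a cAMP response core overlap, Gucy1b1 has a core alone, and the Gucy1a1 window has neither (nor has that of its other start). These letters describe the windows and are not shown to be bound.

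A RefSeq promoter was matched for 39 of the 49 genes, with 75 start sites among them. CACGTG, which reads the same on both strands, was in 6 of these windows (8.00%), against 6.02% of all 32851 windows. The 6 belonged to Adcy1, Gucy1a2, Prkaca, Prkar1a, Prkar1b and Prkar2b. Of these genes Gucy1a2, Prkaca, Prkar1b and Prkar2b rose, Prkar1a fell and Adcy1 did not pass. The fall of Prkar1a is a small one whose call was lost in several alternatives, as given below. The E-box of Prkar1a lies before another start than the one shown. The core TGACG, searched on both strands, was in 16 windows of 14 genes (21.3% against 17.8% of all windows), and the full TGACGTCA in 1, of Prkar1a (1.33% against 1.55%). The CArG box, the binding motif of serum response factor in contractile genes, was in 0 of the 75 windows and in 1.47% of all windows. Shown for contrast are E-box promoters of a gene that rose and of a gene that did not pass, and the Prkar1a promoter with the full cAMP response element.
Prkar2b (chr12:32061278-32061527, minus strand): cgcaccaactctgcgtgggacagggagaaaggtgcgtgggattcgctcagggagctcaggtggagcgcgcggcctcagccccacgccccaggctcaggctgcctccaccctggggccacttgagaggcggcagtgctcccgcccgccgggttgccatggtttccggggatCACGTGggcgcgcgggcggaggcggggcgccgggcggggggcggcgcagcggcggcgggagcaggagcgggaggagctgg
Adcy1 (chr11:7063183-7063432, plus strand): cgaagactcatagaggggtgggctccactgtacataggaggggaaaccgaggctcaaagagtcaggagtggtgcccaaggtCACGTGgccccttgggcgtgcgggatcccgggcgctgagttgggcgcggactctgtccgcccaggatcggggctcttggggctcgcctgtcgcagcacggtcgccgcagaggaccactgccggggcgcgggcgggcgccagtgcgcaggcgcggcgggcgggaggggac
Prkar1a (chr11:109650699-109650948, plus strand): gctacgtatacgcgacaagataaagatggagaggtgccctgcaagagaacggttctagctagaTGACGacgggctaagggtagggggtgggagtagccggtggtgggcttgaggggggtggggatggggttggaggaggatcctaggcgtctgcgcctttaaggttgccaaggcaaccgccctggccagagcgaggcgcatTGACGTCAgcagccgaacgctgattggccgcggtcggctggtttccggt
In Prkar1a the full element contains the core on each strand, and another core lies farther from the start. The windows shown for Prkar2b and Prkar1a also lie within the RefSeq spans of these genes. Those spans are 31958450 to 32061648 on chromosome 12 and 109649023 to 109669663 on chromosome 11.

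Membrane guanylyl cyclases were at low levels. Gucy2c, the receptor for guanylin in the intestine, had 77.4, 85.1 and 59.4 normalized counts in Bmal1 KO, against 0, 0.829 and 2.76 in WT. These came from 199 reads in Bmal1 KO and 4 in WT, a ratio of 62.5 after scaling, with an exact 95% counting interval of 24.0 to 232 (adjusted p = 6.39e-05). Gucy2c and Gucy2g reached the filter only through the libraries labelled Bmal1 KO. Their direction and the lack of overlap were thus fixed by the filter. Gucy2g, known in the mouse from a sensory organ of the nose, had 13.2, 19.2 and 29.7 in Bmal1 KO and 4.59, 4.98 and 5.53 in WT (4.12-fold, adjusted p = 0.00513). Retinal Gucy2e did not pass, at 13.2, 9.59 and 18.3 in Bmal1 KO and 15.6, 4.98 and 12.9 in WT (adjusted p = 0.531). Olfactory Gucy2d and retinal Gucy2f had no reads in any library. The natriuretic peptide receptors, which are also guanylyl cyclases but carry other symbols, are given with the pathway genes below.

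The phosphodiesterases that hydrolyse cAMP alone moved both ways, 3 up and 5 down of 8. The PDE4 enzymes, the targets of rolipram, were lower for the 3 genes with a mean of at least 100 normalized counts. Pde4b had 361, 375 and 328 normalized counts in Bmal1 KO, against 583, 689.9 and 632 in WT, 1.79-fold lower (log2 fold change -0.84, SE 0.11, adjusted p = 0.000226). Pde4d had 400.5, 487 and 449 in Bmal1 KO and 652, 757 and 787 in WT, 1.64-fold lower (log2 fold change -0.72, SE 0.11, adjusted p = 0.000775). Pde4a had 785, 1007 and 881 in Bmal1 KO and 1213, 1709.9 and 1371 in WT, 1.61-fold lower (log2 fold change -0.68, adjusted p = 0.00324). For each of the 3 the groups did not overlap, and these falls passed under every alternative run. Pde4c, with 64 reads in Bmal1 KO and 15 in WT, went the other way (19.4, 19.2 and 33.1 in Bmal1 KO and 8.25, 1.66 and 3.68 in WT, adjusted p = 0.00532). It reached the filter only through the libraries labelled Bmal1 KO, so its direction was fixed.

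In the PDE7 and PDE8 families, cAMP enzymes that rolipram does not block, the A gene fell and the B gene rose. Pde8b had 462, 487 and 464 normalized counts in Bmal1 KO and 183, 196 and 178 in WT, 2.54-fold higher (adjusted p = 1.81e-05). Pde8a had 354, 388 and 424 in Bmal1 KO and 452, 673 and 568 in WT, 1.45-fold lower (adjusted p = 0.0166). For neither gene did the groups overlap. Per kilobase Pde8b averaged 92.5 in Bmal1 KO and 36.4 in WT, against 102 in Bmal1 KO and 148 in WT for Pde8a. Of the exon bases of Pde8b, 8.78% are shared with a gene on the other strand. Pde7b, at 149.8, 153 and 176 in Bmal1 KO and 58.7, 47.3 and 58.9 in WT, was 2.91-fold higher (adjusted p = 0.000160). Pde7a had 371, 312 and 334 in Bmal1 KO and 381, 434 and 446 in WT, where the lowest WT library was only just above the highest of the others (1.24-fold lower, adjusted p = 0.0421). The Pde7a call was lost with upper-quartile scaling (adjusted p = 0.0818), with DESeq2 (adjusted p = 0.0610) and without any of 4 single libraries (adjusted p up to 0.137), and the Pde8a call without WT replicate 3 (adjusted p = 0.0515) or Bmal1 KO replicate 1 (adjusted p = 0.0566). Per kilobase the 8 genes summed to 557 ± 31.1 in Bmal1 KO and 707 ± 91.2 in WT (SD, n = 3 each), with Pde4a the largest share (28.6% ± 2.11 in Bmal1 KO and 36.2% ± 1.99 in WT) and Pde8b at 16.6% ± 0.649 in Bmal1 KO and 5.19% ± 0.553 in WT.

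Of 5 tested phosphodiesterases that hydrolyse both nucleotides, 4 rose and Pde1a fell. Pde3a, whose product is blocked by cGMP and by milrinone and so couples cGMP to cAMP in vessels and platelets (chromosome 6, 141249269 to 141506862), had 2732, 3101 and 2589 normalized counts in Bmal1 KO, against 282, 443 and 409 in WT. No WT library came near the others, and the rise was 7.42-fold (log2 fold change 2.91, SE 0.17, adjusted p = 3.34e-06). Of the exon bases of Pde3a, 6.02% are shared with a gene on the other strand. The PDE1 enzymes, which calcium and calmodulin switch on, split. Pde1b had 2139, 2080.2 and 2098 in Bmal1 KO and 511, 528 and 525 in WT, with little spread in either group (4.04-fold higher, log2 fold change 2.01, SE 0.065, adjusted p = 1.76e-07). Pde1a had 669, 926 and 875 in Bmal1 KO and 1103, 1172 and 1066 in WT (1.35-fold lower, log2 fold change -0.45, SE 0.13, adjusted p = 0.0128). Pde1c, tied in other work to proliferating smooth muscle, stayed low at 20.4, 13.2 and 18.3 in Bmal1 KO and 4.59, 0.829 and 7.37 in WT (log2 fold change 2.03, adjusted p = 0.0172). Without WT replicate 2 that value was 1.40, and the filter fixed its direction. The call was lost when either Bmal1 KO replicate 1 or 3 was dropped (adjusted p of 0.0545 and 0.0529) and after correction for exon length and GC (adjusted p of 0.0571). Pde10a, best known from the striatum, had 942, 1039.5 and 937 in Bmal1 KO and 334, 442 and 428 in WT (2.42-fold higher, adjusted p = 5.24e-05). Pde11a, at 4.08, 5.99 and 3.43 in Bmal1 KO and 4.59, 3.32 and 1.84 in WT, was not tested.

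Over these 6 genes the level per kilobase summed to 1068 ± 39.8 in Bmal1 KO and 438 ± 21.6 in WT (SD, n = 3 each), with the 3 libraries of each label close together. Pde1a made up 15.4% ± 2.13 in Bmal1 KO and 50.7% ± 1.86 in WT of it, and Pde1b 53.1% ± 2.63 in Bmal1 KO and 32.0% ± 1.08 in WT. Pde3a made up 21.3% ± 1.35 in Bmal1 KO and 6.97% ± 1.29 in WT. The largest share per kilobase was thus that of Pde1b in Bmal1 KO and of Pde1a in WT. The order in Bmal1 KO rests on the division by length: of undivided normalized counts Pde3a made up 41.7% and Pde1b 31.4% there, while Pde1a, with 46.1%, still came first in WT. Shares are of the genes analysed here, which include neither Pde3b nor Pde2a. The symbol Pde2a fits the rule but was not found, so the gene table held no row under that symbol.

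**Figure D2:**
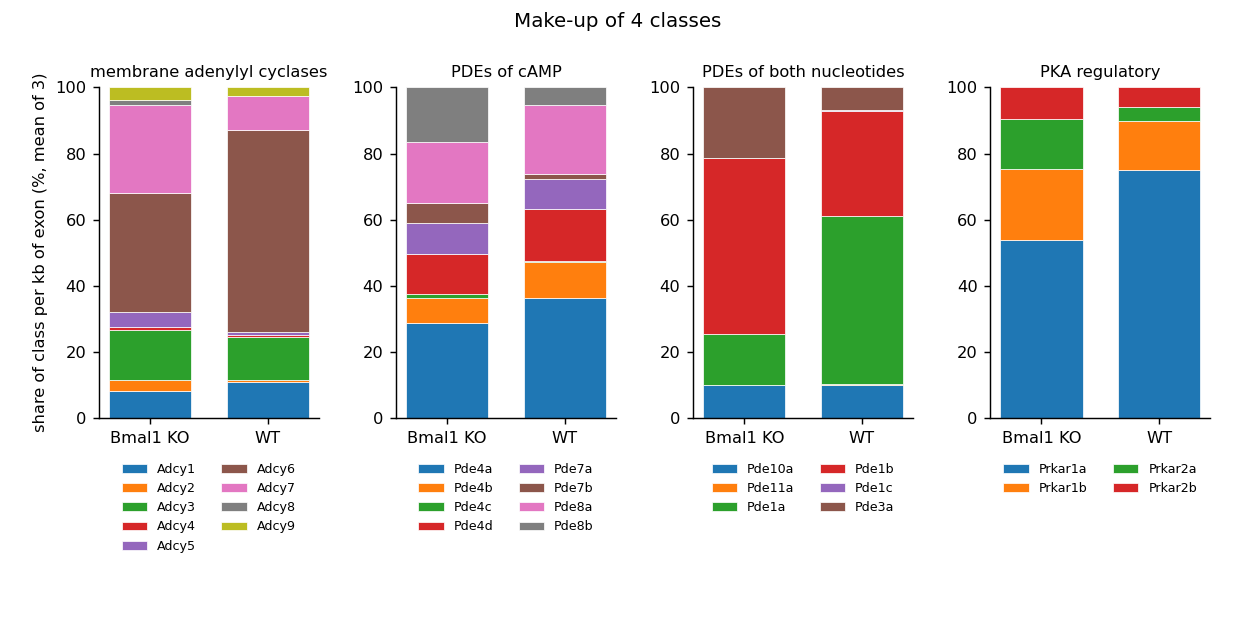
Share of each gene in the summed level per kilobase of exon (percent, mean of 3 libraries) for 4 classes, in the libraries labelled Bmal1 KO (left bar) and WT (right bar). Adcy6, Pde1a and Prkar1a take smaller shares in Bmal1 KO, and Adcy7, Pde1b, Pde3a, Pde8b and Prkar2a larger ones.

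Of the 4 tested phosphodiesterases of cGMP, Pde5a and Pde9a rose and Pde6d and Pde6g did not pass. Pde5a, the target of sildenafil and the main cGMP enzyme of vascular smooth muscle, had 785, 834 and 844 normalized counts in Bmal1 KO and 588, 698 and 701 in WT. The groups did not overlap, but the difference was 1.24-fold (log2 fold change 0.31, SE 0.096, adjusted p = 0.0185), and the log2 fold change was -0.0016 after the exon length and GC correction (adjusted p = 0.983). The call was also lost with total-count scaling (adjusted p = 0.0643) and when either Bmal1 KO replicate 2 or 3 was dropped (adjusted p of 0.0613 and 0.0651). Pde9a, an enzyme with high affinity for cGMP, had 88.7, 114 and 81.1 in Bmal1 KO and 67.0, 48.9 and 38.7 in WT (1.84-fold higher, adjusted p = 0.0159). That call was lost without WT replicate 3 (adjusted p = 0.0524) or Bmal1 KO replicate 2 (adjusted p = 0.0628), and 13.2% of its exon bases are shared with genes on the other strand. Pde6d, which despite its name carries prenylated proteins and has no catalytic domain, had 2229.6, 2126 and 2059.7 in Bmal1 KO and 2465, 2068 and 2127 in WT and did not pass (log2 fold change -0.05, adjusted p = 0.594). After the exon length and GC correction it was 0.15 and passed (adjusted p = 0.0243). The rod inhibitor subunit gene Pde6g had 13.2, 1.20 and 2.28 in Bmal1 KO and 11.9, 14.1 and 4.60 in WT (adjusted p = 0.220), and without Bmal1 KO replicate 1 it passed as lower (log2 fold change -1.94, adjusted p = 0.0323). The other photoreceptor genes, Pde6a, Pde6b, Pde6c and Pde6h, had at most 15.3 normalized counts in any library and were not tested.

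All 6 genes of PKA, the kinase that reads cAMP, passed the test, 5 of them higher and Prkar1a lower. Of all genes tested 71.1% passed, 36.2% as higher and 34.9% as lower. PKA is held inactive by a pair of regulatory subunits until cAMP binds them, and the RII forms are those that anchoring proteins tie most tightly to membranes. Prkar2a, which encodes RII alpha (chromosome 9, 108692143 to 108750444), had 5864, 6243 and 6049 normalized counts in Bmal1 KO, against 1178, 1522 and 1468 in WT. The libraries labelled Bmal1 KO were all far above WT, a 4.36-fold rise (log2 fold change 2.13, SE 0.10, adjusted p = 1.16e-06). Prkar2b (RII beta) had 2879, 2885 and 2681 in Bmal1 KO and 1438, 1371 and 1444 in WT, 1.99-fold higher (adjusted p = 5.68e-06). Prkar1b (RI beta) had 4323, 5295 and 5436 in Bmal1 KO and 2908, 2857 and 2799 in WT, 1.76-fold higher (adjusted p = 0.000128). Prkar1a (RI alpha), which holds the largest share of the regulatory sum given below, went the other way by a small step, with 17687, 17771 and 17604 in Bmal1 KO and 21818, 19326 and 19629 in WT (1.15-fold lower, log2 fold change -0.19, SE 0.070, adjusted p = 0.0370). That call was lost with upper-quartile scaling (adjusted p = 0.0954), without a filter on low values (adjusted p = 0.0511) and without any of 4 single libraries (adjusted p up to 0.113).

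The catalytic subunit genes rose by less than the RII genes. Prkaca had 3763, 3919 and 3894 normalized counts in Bmal1 KO and 2569.8, 3275 and 3040.2 in WT (1.30-fold, adjusted p = 0.00560), and Prkacb 4022, 4334 and 4486 in Bmal1 KO and 3271, 3199 and 3279 in WT (1.32-fold, adjusted p = 0.000681). Neither pair of groups overlapped. Per kilobase the catalytic genes summed to 2373 ± 76.9 in Bmal1 KO and 1814 ± 139 in WT and the regulatory genes to 8072 ± 230.1 in Bmal1 KO and 6633 ± 318 in WT (SD, n = 3 each). Of the regulatory sum Prkar1a held 53.9% ± 1.53 in Bmal1 KO and 75.0% ± 1.41 in WT, Prkar1b 21.5% ± 2.06 in Bmal1 KO and 14.9% ± 0.511 in WT, Prkar2a 15.1% ± 0.160 in Bmal1 KO and 4.24% ± 0.747 in WT and Prkar2b 9.56% ± 0.547 in Bmal1 KO and 5.86% ± 0.237 in WT.

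Prkg1, the cGMP-dependent kinase through which nitric oxide relaxes smooth muscle (chromosome 19, 30564487 to 31765268), had 1229, 1376 and 1263 normalized counts in Bmal1 KO, against 334, 439 and 437 in WT. The groups lay far apart, with a 3.20-fold rise (log2 fold change 1.68, SE 0.12, adjusted p = 1.20e-05). Prkg2, a membrane-bound form known from intestine, kidney and growth cartilage, had 659, 548 and 603 in Bmal1 KO and 470.5, 342 and 403 in WT (1.49-fold, adjusted p = 0.00572). Per kilobase Prkg1 averaged 174 in Bmal1 KO and 54.4 in WT and Prkg2 179 in Bmal1 KO and 120.4 in WT, so that Prkg2 was the higher in WT, and in Bmal1 KO the shares of the pair (49.3% and 50.7%) differed by less than their SD of 3.75. Of undivided normalized counts of the pair, Prkg1 made up 68.1% in Bmal1 KO and 49.9% in WT, so this order too rests on the division by length.

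**Figure D3:**
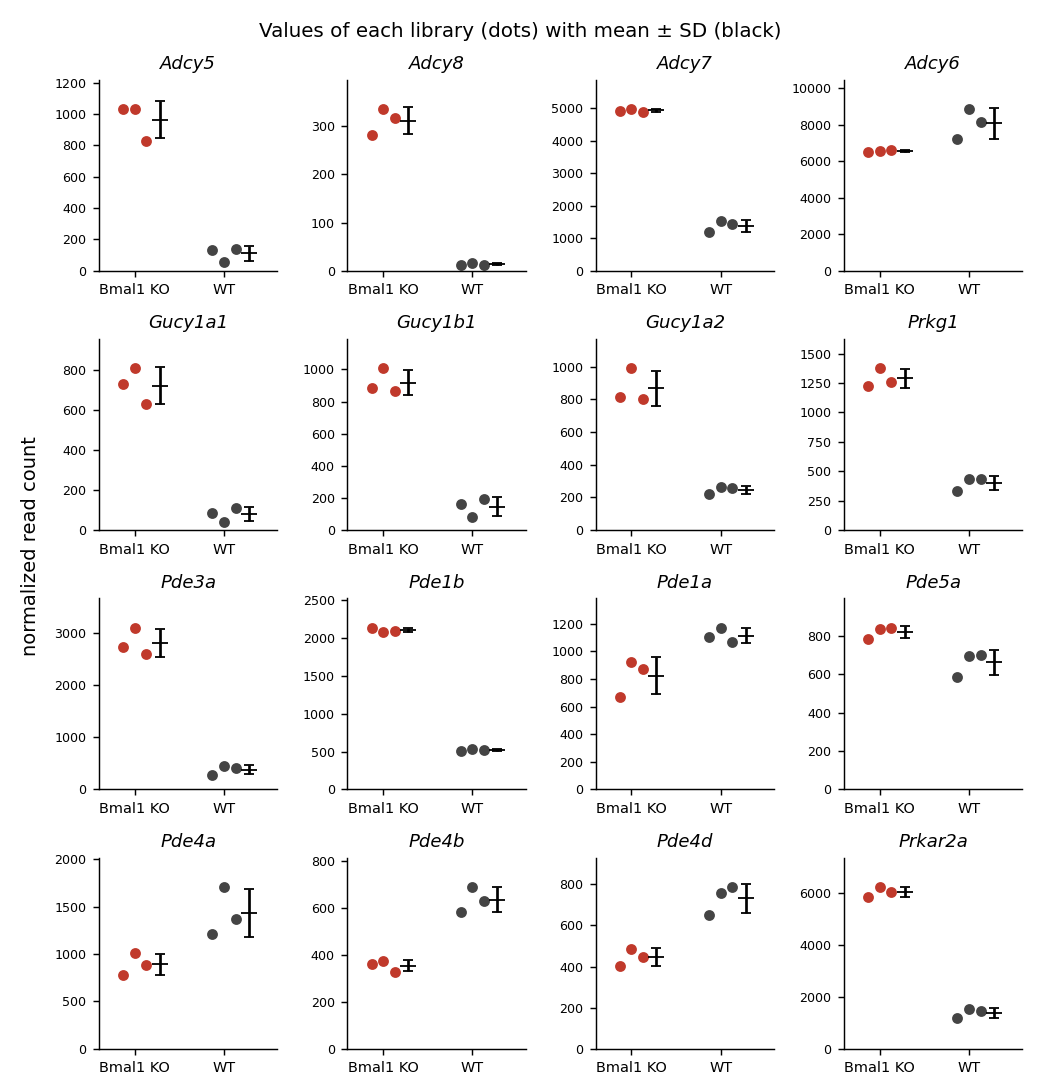
Normalized read counts (linear axes from 0) of 16 members in each library, with dots for the 3 libraries labelled Bmal1 KO (left, red) and the 3 WT libraries (right, dark grey) and black marks for the mean ± SD. The groups do not overlap in any panel; Adcy6, Pde1a, Pde4a, Pde4b and Pde4d are lower in Bmal1 KO and the other 11 higher.

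Other genes of these pathways were taken from 9 lists chosen by function, with earlier results of these data known, and described by counts. Over all genes tested 36.2% were higher and 34.9% lower, and the counts of each list are to be read beside these shares. Among the genes counted, Htr7, Nr4a3 and Pkib reached the filter only through the libraries labelled Bmal1 KO and Nppb only through WT, so they had to differ. Among G proteins that control the cyclases, 7 of 8 tested genes rose and 0 fell (median log2 fold change 0.58). Gnaz, an inhibitory alpha subunit, rose 3.65-fold (268, 287 and 281 in Bmal1 KO and 64.2, 69.7 and 94.9 in WT), and Gnal, a stimulatory one, 2.88-fold (834, 840.5 and 676 in Bmal1 KO and 323, 201 and 292 in WT). Inhibitory Gnai1 rose 2.13-fold. Of the receptors that act through stimulatory G proteins, 12 of 18 tested genes rose and 4 fell (median 1.35). Calcrl, the receptor partner for calcitonin gene-related peptide and adrenomedullin, rose 7.79-fold (2407, 2289 and 2740.5 in Bmal1 KO and 318, 296 and 339.8 in WT), adenosine receptor Adora2b 3.32-fold, and Adcyap1r1, which binds the cyclase-activating peptide PACAP, rose by 5.46 on the log2 scale (adjusted p = 3.20e-09).

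In the natriuretic peptide list 4 of 5 tested genes rose and 1 fell, the fall being that of the peptide gene Nppb (2 reads in Bmal1 KO and 61 in WT), whose direction the filter fixed (median 0.74). The receptor cyclases Npr1 (298, 311 and 330.1 normalized counts in Bmal1 KO and 183, 201 and 178 in WT) and Npr2 (4244, 4505 and 4344 in Bmal1 KO and 2818, 3508 and 3078 in WT) rose 1.67-fold and 1.39-fold, and the clearance receptor Npr3, which has no cyclase, 17.2-fold (5295, 5389 and 5142 in Bmal1 KO and 286, 299 and 334 in WT). The Epac genes, whose products read cAMP without PKA, went apart: Rapgef3 (Epac1) was 4.28-fold lower (283, 306 and 319.9 in Bmal1 KO and 1206, 1431 and 1255 in WT, adjusted p = 1.23e-06) and Rapgef4 (Epac2) 7.08-fold higher (443, 820.1 and 950.4 in Bmal1 KO and 151, 49.8 and 111 in WT, adjusted p = 0.000558). With the cAMP-gated channels of that list, 5 of 7 tested genes rose and 2 fell (median 0.97), and Cngb1 was 2.13-fold lower. Among anchoring proteins of PKA, 4 of 11 tested genes rose and 3 fell and 4 did not pass (median 0.18). That share of rises is near the 36.2% of all genes tested. Akap12 had 40200.4, 39624 and 39966 in Bmal1 KO and 3330.1, 4941 and 4629 in WT (9.29-fold higher), and Akap5 and Akap6 rose 12.3-fold and 5.97-fold. Of the PKA inhibitors, Pkia (1832 ± 151 in Bmal1 KO and 1653 ± 164 in WT) and Pkig (1051 ± 38.9 in Bmal1 KO and 920.4 ± 124 in WT) did not pass, and low Pkib, whose direction the filter fixed, had 12.2, 12.0 and 21.7 in Bmal1 KO and 0, 6.63 and 4.60 in WT (adjusted p = 0.0367). The Pkib call was lost with a stricter filter, a pseudocount of 0.5 or DESeq2, and without any one library labelled Bmal1 KO.

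Of the CREB factors, which PKA switches on, and their coactivators, 2 of 8 tested genes rose and 4 fell (median -0.32), with Crem 1.52-fold lower and Crtc1 and Crebbp 1.71-fold and 1.62-fold higher. Over all genes tested 36.2% were higher and 34.9% lower. Among early genes that cAMP can induce, 8 of 12 tested genes rose and 3 fell (median 0.90). Rgs2, a brake on contractile G proteins that PKG also phosphorylates, rose 5.56-fold (488, 435 and 479 in Bmal1 KO and 101, 63.9 and 87.5 in WT), the phosphatase gene Dusp1 3.10-fold and the nuclear receptor gene Nr4a2 2.83-fold. Among PKG substrates and partners, where Rgs2 is counted again, 5 of 8 tested genes rose and 2 fell (median 1.53), though 1 of these falls was lost in 9 of 18 alternatives. Irag1, which ties PKG to the calcium store, had 398, 408 and 432 in Bmal1 KO and 9.17, 14.1 and 13.8 in WT (33.4-fold), and the cation channel gene Trpc6 and the calcium-activated potassium channel gene Kcnma1 rose 10.2-fold and 8.68-fold. Irag1, Trpc6 and Kcnma1 rose together with the smooth muscle markers, and the part of that in these values was not tested.

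**Figure D4:**
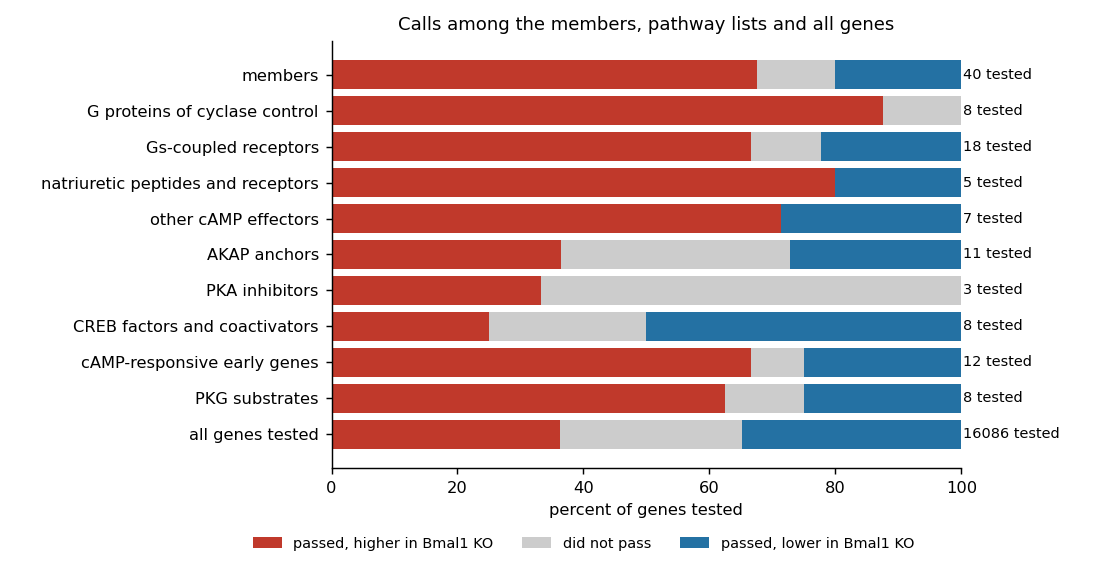
Percent of tested genes that passed as higher in the libraries labelled Bmal1 KO (red), did not pass (grey) or passed as lower (blue), for the 40 members, the 9 pathway lists and all 16086 genes tested. Members are higher in 67.5% and all genes in 36.2%; the number of genes tested stands at the right of each bar.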

How the data were processed

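Polyadenylated RNA of 6 libraries was sequenced after an Illumina stranded kit, per the labels' protocols, with groups and replicate numbers from the sample titles; 0 columns stayed unmapped. Trimmomatic, HISAT2, featureCounts and mm10 stand in the submitters' processing notes, with neither version nor role; no source used here gives the annotation or the strand setting. The deposited table holds a signal per gene and library, read counts that the authors divided by 1 factor per library. Dividing by each library's step turned 100% of values into whole reads, within 0.01, and these factors equalled, to rounding, recomputed median-ratio size factors. Such factors rest on the typical gene being level between groups.

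The test was limma 3.58.1 (R 4.3.3) on log2(value + 1), with group as the only term and the prior variance trended on mean level, over genes with at least 10 normalized counts in at least 3 libraries; log2 fold changes are libraries labelled Bmal1 KO over WT and are too small for low genes, and each fold is a ratio of mean normalized counts. P-values were adjusted over all 16086 genes, with a threshold of 0.05. An edgeR 4.0.16 quasi-likelihood test on the recovered reads called 11479 genes, against 11435 for limma. Read ratios with fewer than 10 reads in a group carry exact intervals, which cover counting error only. Exon lengths are from GENCODE M21, promoters and coordinates (counted from 1, whole genes) from RefSeq, which matched 49 of 49 members. The members and lists were chosen with earlier results of these data known. All members are given; those that passed are named in full, up to 6 a class, with those that did not pass, and of each pathway list up to 3 called genes with a mean of at least 100 and the largest changes. Pkia, Pkib, Pkig, Nppb, Htr7, Nr4a3, Xist, Ddx3y and the single markers were named after their values were seen. Every pair of replicates was checked and differed beyond sampling noise, so none was counted as a duplicate. Scripts were tested on simulated data. DESeq2 1.42.0, voom, other scalings, filters and pseudocounts, a block on the replicate number, omission of each library and a length and GC correction were alternatives.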

Additional observations from a re-analysis of the deposited data

How the results depend on the processing

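Of the 40 tested members, 30 kept their side of the threshold in all 18 alternatives, where tested, and 29 of these also their sign: Gucy2e, which did not pass, had a log2 fold change of -0.09 without WT replicate 2, against 0.36. The other 10 were Adcy1, Adcy4, Pde1c, Pde5a, Pde6d, Pde6g, Pde7a, Pde8a, Pde9a and Prkar1a, and the cause was not tested. After correction for exon length and GC, the log2 fold changes of Adcy1, Pde6d and Pde5a were -0.45, 0.15 and -0.0016, against 0.06, -0.05 and 0.31 without that step; without passing, Adcy1 was also under 0 with TMM or total-count scaling and without WT replicate 1 or Bmal1 KO replicate 2, and Pde6d over 0 with upper-quartile scaling and without WT replicate 1. Leaving out 1 library gave 25 to 27 members higher and 5 to 8 lower, the fewest lower without WT replicate 3, and 10283 to 11692 genes in all; where this left 2 libraries in a group, the fit still pooled the spread over both groups. The other alternatives gave 24 to 28 higher and 6 to 9 lower members. Bmal1 stayed higher in all of them (log2 fold change 0.72 to 0.90). Same-numbered libraries of the 2 groups were hardly correlated in their deviations (r = -0.0045, 0.0258 and 0.0839), and none correlated best with its own number. With the replicate block, 11556 genes, 27 members higher and 7 lower were called, and Pde7a lost its call (adjusted p = 0.0734). Under TMM or total-count scaling 1 G protein gene passed as lower. DESeq2 called 11267 genes. Depth limits members with few reads, such as Gucy2c in WT.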

Other observations

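Over the 28 members with a mean of at least 100 normalized counts in each group, the coefficient of variation had a median of 5.97% in Bmal1 KO (range 0.474% to 16.5%) and 11.2% in WT (range 1.35% to 43.0%), and 21 of the 28 varied more in WT. Among the 19 members at least 2-fold higher in Bmal1 KO, the lowest WT value was in replicate 1 for 11, in replicate 2 for 7 and in replicate 3 for 1. Neither count was made over all genes, so neither is shown to be particular to the members. Replicate pairs compared over all genes with enough reads also differed more in WT. Chi-square per degree of freedom was 24.2 to 71.6 there and 10.1 to 19.3 in Bmal1 KO, a measure that also grows with depth.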
